A study of Mus musculus with 6 samples.

Results

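The cytosolic ribosomal protein genes of the mouse were followed in the testis of Ankrd31+/+ and Ankrd31-/- males. They were found by symbol among protein-coding genes of GENCODE M21: names of the form Rpl or Rps with a number, together with Rplp0, Rplp1, Rplp2, Rpsa and Fau, and without the S6 kinases. This gave 85 of the 49671 gene rows, of which 78 were canonical genes, 46 for proteins of the large subunit and 32 for proteins of the small subunit, and 7 were paralogs (Rpl3l, Rpl10l, Rpl39l, Rpl22l1, Rpl7l1, Rpl36al and Rps27l). All 85 passed the filter on low counts, as part of the 18040 genes tested. Rps4l, a paralog of Rps4x, is annotated as a transcribed processed pseudogene and was outside the rule. The 4 canonical genes on the X chromosome were Rpl10, Rpl36a, Rpl39 and Rps4x.

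Cytosolic ribosomes are built from ribosomal RNA and a fixed set of ribosomal proteins, and the canonical genes are active in nearly every cell. Their messenger RNAs typically begin with a run of pyrimidines at the first base, the 5′ terminal oligopyrimidine or TOP motif, through which the mTOR pathway and LARP1 control their translation. Male germ cells also make paralogs: Rpl10l is an autosomal retrogene of the X-linked Rpl10, which is silenced with the rest of the X chromosome in pachytene spermatocytes, and Rpl39l replaces the X-linked Rpl39 at the exit tunnel of ribosomes in spermatogenic cells.

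RNA from the whole testis of 12-day-old juvenile C57BL/6J males was sequenced, with 3 libraries from the wild type (Ankrd31+/+) and 3 from the homozygous knockout (Ankrd31-/-), and the labels name no further allele or treatment. Ankrd31 encodes an ankyrin-repeat protein of the machinery that makes meiotic DNA double-strand breaks. The labels do not describe the knockout allele or say whether equal replicate numbers mark littermates. In whole tissue, fewer cells of a type and less RNA per cell cannot be told apart. The libraries held between 21014060 and 22706296 counts. Ankrd31 itself stood at 84.9, 52.3 and 63.2 CPM (counts scaled to a common library size) in the wild-type libraries 1, 2 and 3. The matching knockout libraries were at 40.8, 33.2 and 38.0 CPM. All 3 knockout libraries were below all 3 wild-type libraries, with a log2 fold change of -0.84 ± 0.17 (SE), which did not pass the edgeR quasi-likelihood test after Benjamini-Hochberg adjustment over all genes (unadjusted p = 0.00154) and passed it with the replicate number as a block (-0.82 ± 0.07, adjusted p = 0.00505). Defining markers of the testis were present in every library: the 10 Sertoli cell markers summed to 5918 to 6949 CPM and the 12 markers of early meiotic prophase to 1430 to 2539 CPM. Markers of pachytene and later spermatocytes were scarcer, with 11 of 15 passing the filter and a sum over the whole list of 224 to 441 CPM. Libraries also differed within a genotype: the meiotic lists were highest in wild-type replicate 1 and knockout replicate 1. The 8 markers of epididymis and rete testis, 7 of them tested, summed to 83.1 CPM in wild-type replicate 3. Their sum was 9.42 to 18.4 CPM in the other 5 libraries. The 7 Leydig cell markers ranged from 254 CPM in knockout replicate 3 to 766 CPM in knockout replicate 2.

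Sequences around the start site are shown for 2 canonical genes and 3 pairs of paralog and parent, since a pyrimidine run near the start was more frequent among canonical genes than among all promoters. The windows below run from 40 bases before to 30 bases from the start given by RefSeq (build GRCm38.p6), 5′ to 3′ on the strand of the gene. Capitals mark the longest unbroken run of C and T that touches the 10 bases on either side of the start. Rpl34 (chr3:130730308-130730377 on the minus strand) and Rps18 (chr17:33955636-33955705 on the minus strand) are shown for canonical genes with a long run that covers the start.
Rpl34: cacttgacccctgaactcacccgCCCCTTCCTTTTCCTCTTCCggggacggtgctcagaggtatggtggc
Rps18: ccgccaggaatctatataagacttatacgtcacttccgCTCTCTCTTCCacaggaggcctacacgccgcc
Rpl39 (chrX:37085193-37085262 on the minus strand) and its paralog Rpl39l (chr16:10170188-10170257 on the plus strand) are shown as a parent and a germ-cell copy that both have start windows in RefSeq.
Rpl39: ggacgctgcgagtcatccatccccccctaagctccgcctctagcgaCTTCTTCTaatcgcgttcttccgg
Rpl39l: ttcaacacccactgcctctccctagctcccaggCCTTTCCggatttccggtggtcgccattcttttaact
Rpl10 (chrX:74270776-74270845 on the plus strand) and its retrogene Rpl10l (chr12:66284372-66284441 on the minus strand) are shown for an X-linked parent and its single-exon autosomal copy.
Rpl10: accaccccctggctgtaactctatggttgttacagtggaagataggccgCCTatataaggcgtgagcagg
Rpl10l: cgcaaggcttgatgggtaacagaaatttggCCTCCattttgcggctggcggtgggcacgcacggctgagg
Rps27 (chr3:90213619-90213688 on the minus strand) and Rps27l (chr9:66946046-66946115 on the plus strand) are shown for a somatic pair in which both windows carry a run of 9 pyrimidines. The run covers the start in Rps27 (positions -2 to 6) and lies before it in Rps27l (positions -12 to -4).
Rps27: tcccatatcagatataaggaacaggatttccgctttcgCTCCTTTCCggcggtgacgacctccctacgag
Rps27l: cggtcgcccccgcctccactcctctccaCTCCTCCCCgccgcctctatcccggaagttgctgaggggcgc
The run was 20 bases long in Rpl34 and 11 in Rps18, and only 3 in Rpl10 and 5 in Rpl10l. Rpl39 and Rpl39l differed little in the length of the run, 8 and 7 bases. Neither run covers the start: that of Rpl39 lies after it (positions 6 to 13) and that of Rpl39l before it (positions -7 to -1). RefSeq starts can lie away from the starts of GENCODE: the distance was 180 bases for Rpl39, 12 for Rps18 and 3 or 4 for Rps27 and Rpl10, and 0 for the other 4 genes shown.

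Start windows were matched for 65 of the 85 members, 58 canonical genes and all 7 paralogs, and were set beside those of 16455 protein-coding genes in the same table. The rule for picking a window differed. Members took the RefSeq start nearest the 5′ end of the main transcript, other genes the one nearest the 5′ end of the whole gene. A run of at least 8 pyrimidines touched the 10 bases on either side of the start in 26 of 58 canonical genes (44.8%) and 2 of 7 paralogs (28.6%), against 13.6% of all promoters. Such a run need not cover the start: that of Rps25 lay at positions -22 to -9. Runs that begin at the first base were not counted separately. Motifs with fixed letters were searched on both strands of the whole 300 bases (250 before and 50 after the start). CCGGAAG, the core of binding sites of ETS-family factors such as GABPA, was in 39.7% of canonical promoters, 28.6% of those of the paralogs and 12.4% of all promoters. AAGATGGC, the core of the YY1 site, was in 8.62%, 14.3% and 3.28%, and TATAAA was in 8.62%, 14.3% and 12.8%. CTCTTTCC was in 15.5% of canonical promoters, in 0 of 7 paralog promoters and in 3.04% of all promoters, and CTTTTCC in 17.2%, 14.3% and 7.89%. These last motifs are pyrimidine strings and can lie within the runs counted above. A match describes the letters in the window and was not tested for binding.

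Per length of exon, the canonical genes spanned a wide range in the wild-type testis. Levels are given as CPM per kilobase of summed exon length (RPKM). The most abundant by this measure was Rplp1, a protein of the acidic stalk that recruits elongation factors, at 683, 756 and 703 RPKM in wild-type replicates 1, 2 and 3 and at 702, 711 and 709 RPKM in the knockouts. The knockout values of Rplp1 lay inside the wild-type range. Rpl8, a core protein of the large subunit, was next at 634, 740 and 681 RPKM in the wild type and 668, 672 and 663 RPKM in the knockout. Rpl4, which lines part of the exit tunnel, had means of 439 ± 28.3 RPKM (SD, n = 3) in the wild type and 438 ± 18.7 RPKM in the knockout. The wild-type spreads of Rplp1 (714 ± 37.8) and Rpl8 (685 ± 53.2) overlapped, though Rplp1 was above Rpl8 within every library. Both stood clear of Rpl4.

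At the other end, Rps13, a small-subunit protein, was the lowest canonical gene at 1.23, 0.915 and 1.14 RPKM in the wild type and 0.931, 1.19 and 1.05 RPKM in the knockout, and Rpl11 and Rpl24 were next at 1.58 ± 0.16 and 1.66 ± 0.19 RPKM (SD, n = 3). These lowest neighbours in the order did not stand apart: the spreads of Rpl11 and Rpl24 overlapped. The wild-type means of Rplp1 and Rps13 differed 652-fold, and across the 78 canonical genes the quartiles were 7.18, 21.4 and 59.3 RPKM. The low end depends on the length used, since summed exons can hold rare isoforms. Per length of the main transcript alone, a setting chosen after seeing the data, the median was 50.7 RPKM, Rpl24 and Rps23 were lowest at 2.53 RPKM each with Rps13 at 5.01 RPKM, and the span from Rplp1 was 282-fold. The order of the genes was nearly the same in both genotypes, with a Spearman rho of 0.999 between the group means across genes, which share their libraries and their lengths and are no independent replicates.

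**Figure D1:**
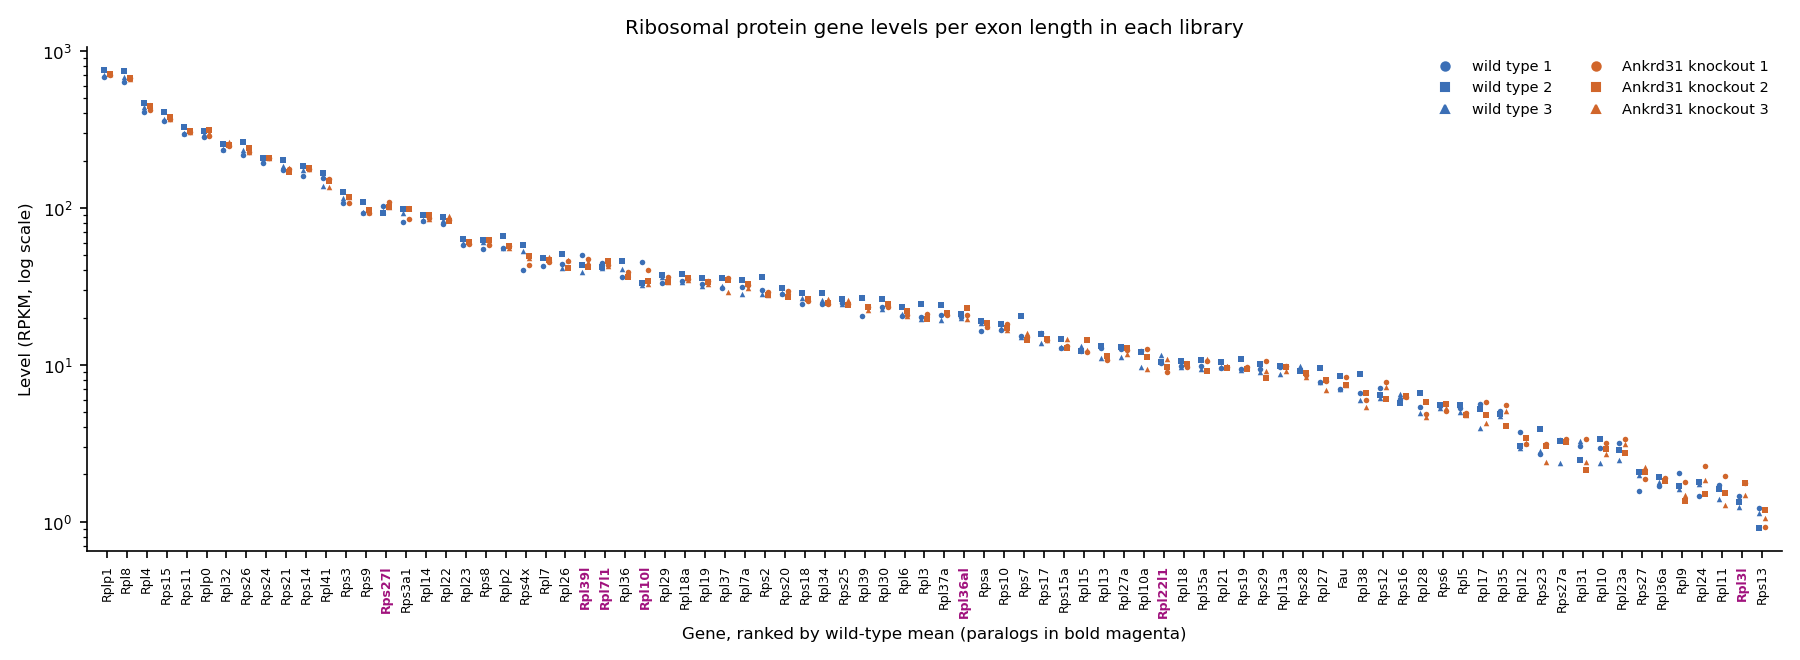
Level of each of 84 of the genes in each of the 6 libraries, in RPKM on a log axis, ranked by the wild-type mean; blue points are wild-type and orange points are knockout libraries. Rplp1, Rpl8 and Rpl4 stand at the left end and Rps13 at the right end, and the knockout points follow the wild-type points along the range, with non-overlapping genotypes in Rps24, Rps28, Rpl5 and Rpl3l.

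These levels are read with the sequence that the genes share with their many processed pseudogenes. Each main transcript was divided into windows of 50 bases, and the share of windows found in the annotated transcripts of no other gene was counted. The median share was 41.3% for canonical genes, with the lowest share, 1.35%, in Rps27, and 90.8% for the paralogs. The 23 canonical genes with under 25% of unique windows had a median of 6.56 RPKM, the 31 between 25% and 60% had 13.4 RPKM, and the 24 with at least 60% had 90.8 RPKM. Per length of the main transcript the medians were 10.1, 52.7 and 141 RPKM, in the same order. Across the 78 canonical genes the Spearman rho of the unique share with the wild-type level was 0.59, and 0.54 per length of the main transcript, a description over genes that share libraries. Rps13 and Rpl10 had 17.0% and 7.87% of unique windows, Rpl8 had 92.1%, and Rplp1 reached the highest level with 40%. How the authors' counting treated reads with several matches is not given in the sources used here, so a low level of a gene with few unique windows is uncertain, and the part of shared sequence in the levels was not tested.

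**Figure D2:**
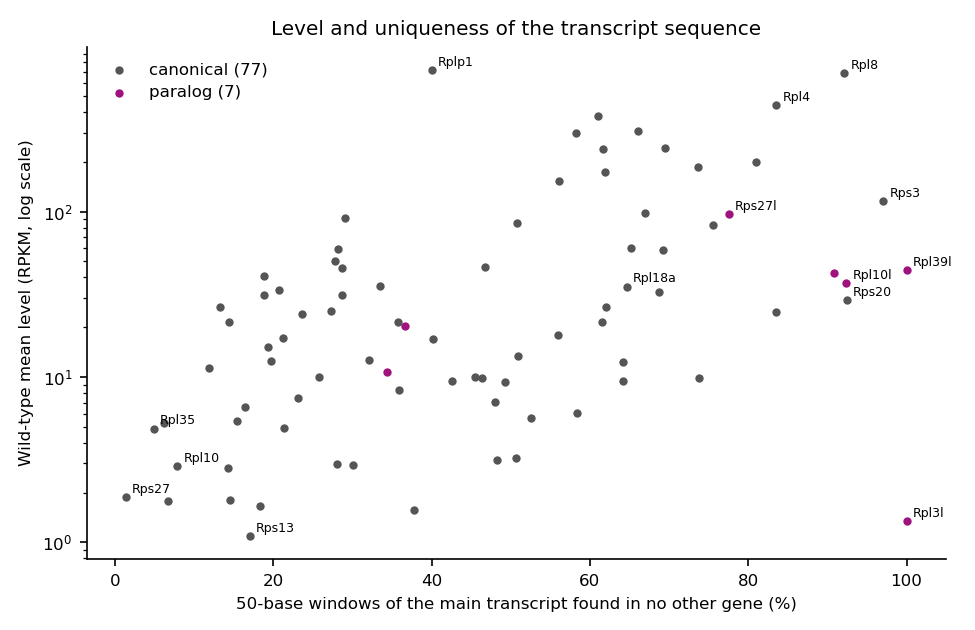
Wild-type mean level in RPKM (log axis) against the percentage of 50-base windows of the main transcript found in no other gene, 1 point for each of 84 genes, canonical genes in grey and paralogs in magenta. Rpl8 and Rps3, with mostly unique sequence, lie at the top right, Rps27, Rpl10 and Rps13 at the bottom left, and Rpl3l at the bottom right with fully unique sequence. Not all canonical genes with mostly unique sequence were high: Rpl21 (73.8% unique) and Rps29 (64.2%) were at 9.87 and 9.46 RPKM.

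None of the 85 genes was called between knockout and wild type. With edgeR's quasi-likelihood test and Benjamini-Hochberg adjustment over all 18040 genes, 0 of 85 passed a threshold of 0.05, against 0% of all tested genes. At an unadjusted p under 0.05 the same test gave 0 of 85 members, against 2.07% of all tested genes. DESeq2 called 0 members (0.0111% of all genes) and gave 0 at an unadjusted p under 0.05 (1.34%), and limma voom gave 0 and 0 (0% and 2.07%). With the replicate number as a block, edgeR called 0 members (0.0443% of all genes) and gave 1, Rpl13, at an unadjusted p under 0.05 (7.48%). Of the blocked alternatives, limma voom also called 0 members and gave 1 at an unadjusted p under 0.05 (0.0443% and 7.51% of all genes), and DESeq2 gave 0 and 0 (0.0776% and 2.21%).

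The size of change that these libraries leave room for was small for most members. Of the canonical genes, 33 had a positive and 45 a negative log2 fold change (knockout over wild type), with a median of -0.01 and a range from -0.24 for Rpl38 to 0.17 for Rpl24, and the median over all tested genes was -0.0048. Large-subunit genes had a median of -0.0022 and small-subunit genes one of -0.02. The 95% confidence interval of the fold change lay within 1.5-fold in both directions for 73 of 78 canonical genes and 6 of 7 paralogs. The exceptions among canonical genes were Rpl24, Rpl31, Rpl38, Rps23 and Rps27, and Rpl3l among the paralogs. Within 1.2-fold lay 46 canonical genes and 4 paralogs. The narrowest interval belonged to Rps24, from -0.07 to 0.19 on the log2 scale, and the widest to Rpl24, from -0.33 to 0.67. Rpl24 rested on 33 to 51 counts a library and Rps24 on 3558 to 3975.

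**Figure D3:**
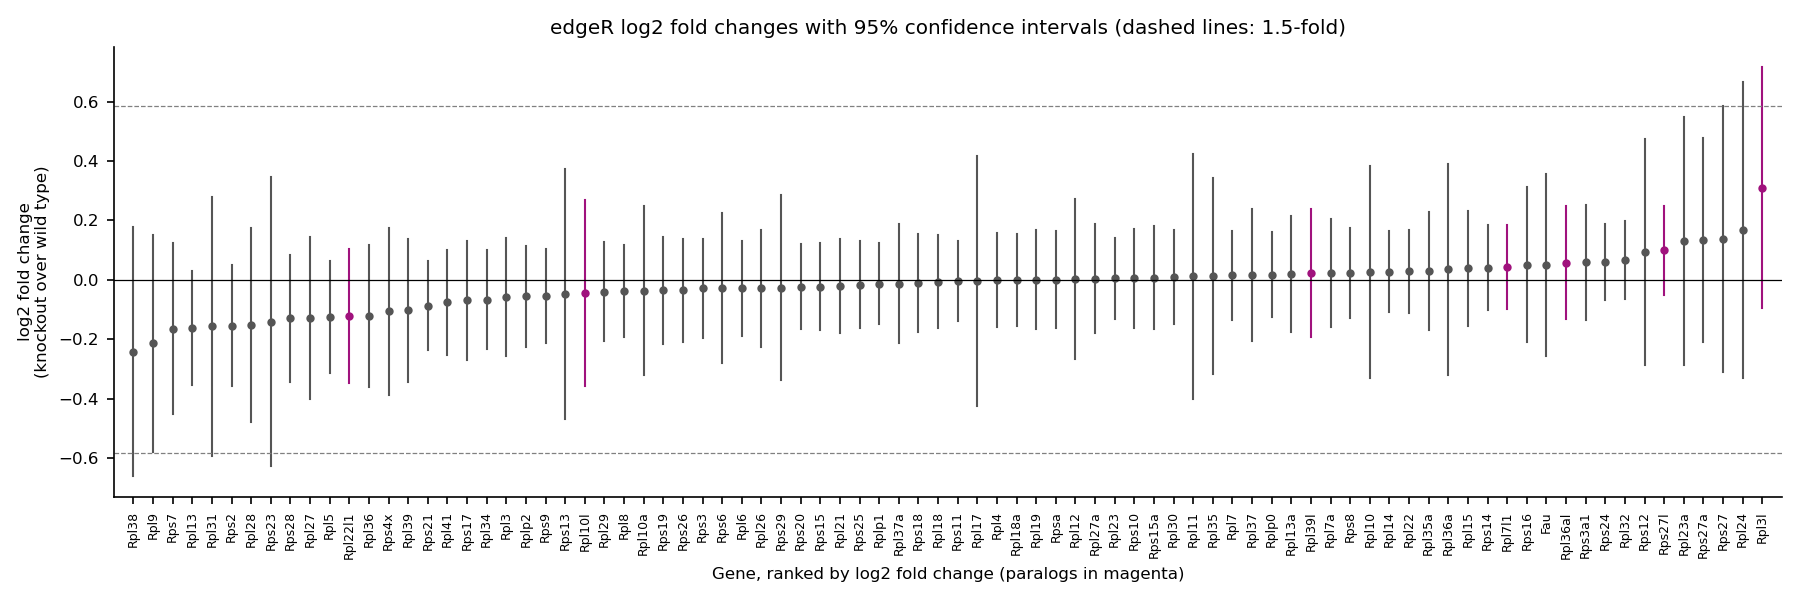
log2 fold change of knockout over wild type from the edgeR fit for each of 84 of the genes, ranked, with vertical bars for the 95% confidence interval; grey for canonical genes, magenta for paralogs, dashed lines at 1.5-fold. Every interval crosses 0, and 6 of the 84 extend past a dashed line.

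Rpl13, a large-subunit protein, had the smallest unadjusted p among members with a lower mean in the knockout. It stood at 33.4, 34.4 and 28.8 CPM in the wild-type libraries 1, 2 and 3 and at 28.0, 29.4 and 29.0 CPM in the knockout libraries of the same order. Wild-type replicate 3 lay within the knockout range, so the groups overlapped. The log2 fold change was -0.16 ± 0.09 in edgeR's quasi-likelihood fit (unadjusted p = 0.089; Benjamini-Hochberg adjusted p = 1.0), and -0.16 ± 0.07 with the block (unadjusted p = 0.045, adjusted p = 0.659). Rps2, a small-subunit protein at the entry of the messenger RNA channel, was at 54.7, 65.9 and 51.6 CPM against 52.8, 50.9 and 51.1 CPM. Only wild-type replicate 2 was far from the rest, and the log2 fold change was -0.15 ± 0.09. Rpl5, which carries 5S ribosomal RNA into the large subunit together with Rpl11, was at 20.6, 21.9 and 19.5 CPM against 19.3, 18.8 and 18.9 CPM. Its groups did not overlap, with a log2 fold change of -0.12 ± 0.08. Rps28 was at 13.6, 13.3 and 14.3 CPM against 12.5, 12.9 and 12.2 CPM, again without overlap (-0.13 ± 0.10). Rpl9 had the same sign (-0.21 ± 0.16), with overlapping groups at 4.97 to 6.29 CPM in the wild type and 4.17 to 5.51 CPM in the knockout. Single libraries moved some of these values by over 1.5 times without turning them: Rps2 was -0.04 and Rpl5 -0.08 without wild-type replicate 2, and Rpl9 was -0.11 without wild-type replicate 1, -0.12 without knockout replicate 2 and -0.33 without knockout replicate 1.

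Among members with a higher mean in the knockout, Rps24 was at 161, 175 and 168 CPM in wild-type libraries and at 175.0, 175.4 and 175.5 CPM in knockout libraries. The 3 knockout libraries were nearly equal and lay just above wild-type replicate 2, at 174.8 CPM, and the log2 fold change was 0.06 ± 0.06. Rpl32 was at 226, 244 and 230 CPM against 239, 243 and 251 CPM (0.07 ± 0.06). Rps27a, which is translated as a fusion with ubiquitin, was at 6.52, 6.46 and 4.69 CPM against 6.60, 6.36 and 6.44 CPM (0.13 ± 0.15). In Rps27a wild-type replicate 3 alone was low, and in Rpl32 the groups overlapped. Without wild-type replicate 1, Rps24 was 0.03, Rpl32 0.04 and Rps27a 0.21. Without wild-type replicate 2, Rpl32 was 0.10 and Rps27a 0.21, and without wild-type replicate 3 Rps27a was 0.0024. Counted over the 85 members, the groups did not overlap in 2 higher genes, Rps24 and Rpl3l, and in 2 lower genes, Rpl5 and Rps28, against 3.09% of all tested genes higher and 3.5% lower. Libraries of the same number differed in 1 direction in all 3 pairs for 5 members higher and 8 lower, against 13.9% and 14.7% of all tested genes.

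Rpl10l is encoded by a single exon on chromosome 12 (chr12:66283379-66284401, minus strand), and its coding sequence is 84.7% identical to that of Rpl10 over 642 bases. Of its 50-base windows 92.4% were in no other gene, and none was shared with Rpl10. Its level was 45.3, 33.2 and 32.3 RPKM in the wild-type libraries 1, 2 and 3 and 40.4, 34.2 and 32.8 RPKM in the knockout libraries of the same order. Replicate 1 was the highest library of each genotype, and the groups overlapped throughout. The same libraries, wild-type and knockout replicate 1, were the highest for the early meiotic prophase list, at 2536 and 2539 CPM against 1430 to 2068 CPM in the other 4, and for the pachytene list, at 441 and 350 CPM against 224 to 268 CPM. The part of germ cell composition in the level of Rpl10l was not tested. On the CPM scale the log2 fold change was -0.05 ± 0.14, with a 95% interval from -0.36 to 0.27.

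Rpl39l lies on chromosome 16 (chr16:10170226-10174911, plus strand) and shares 85.0% of its 153 coding bases with Rpl39, and all of its 50-base windows were unique. Its level was 49.8, 43.2 and 39.0 RPKM in the wild type and 46.8, 42.0 and 45.2 RPKM in the knockout. Here too replicate 1 was highest in each genotype, and every knockout value lay inside the wild-type range. A peak in replicate 1 of each genotype was not particular to these germ-cell copies. Rpl3l and Rps27l had it as well, while Rpl22l1, Rpl7l1 and Rpl36al did not. For Rpl39l, all values are per summed exon length. The log2 fold change was 0.02 ± 0.10, with an interval from -0.19 to 0.24. Its parent Rpl39 was at 20.4, 26.7 and 27.2 RPKM in the wild type and 23.3, 23.4 and 22.4 RPKM in the knockout, and the ratio of Rpl39l to Rpl39 was 1.83 ± 0.54 (SD, n = 3) and 1.94 ± 0.13 in the 2 groups. The order of this pair turned with the length used. Summed exons are 831 bases in Rpl39l and 1434 in Rpl39, whereas the main transcripts are 805 and 612 bases, which gave ratios of 0.807 ± 0.24 and 0.855 ± 0.055. Without any length, the CPM of Rpl39l was above that of Rpl39 in 4 of 6 libraries and below it in wild-type replicates 2 and 3. Rpl39 had 83.5% of unique windows.

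The other X-linked parents were lower than their autosomal copies. Rpl10 was at 2.93, 3.36 and 2.35 RPKM in the wild type and 3.19, 2.92 and 2.70 RPKM in the knockout, and the ratio of Rpl10l to Rpl10 was 13.0 ± 2.86 and 12.2 ± 0.46 in the 2 groups. Rpl36al, a copy on chromosome 12 with 87.7% identity to Rpl36a, was at 20.3 ± 0.62 RPKM in the wild type and 21.1 ± 1.81 RPKM in the knockout, 11.2 ± 0.55 and 11.4 ± 1.12 times the level of Rpl36a. Both parents had few unique windows, 7.87% in Rpl10 and 14.5% in Rpl36a, against 92.4% in Rpl10l and 36.7% in Rpl36al, so these ratios are uncertain. Per length of the main transcript the wild-type ratios were 5.07 ± 1.11 for Rpl10l and 8.41 ± 0.42 for Rpl36al, above 1 in all 6 libraries. Rps4x, the X-linked gene of the small subunit, was at 40.3, 57.9 and 52.8 RPKM in the wild type and 43.3, 49.5 and 47.5 RPKM in the knockout. Wild-type replicate 2 was its highest and wild-type replicate 1 its lowest library, with a log2 fold change of -0.11 ± 0.12. The 4 X-linked genes had a median log2 fold change of -0.04 and the 74 autosomal canonical genes one of -0.01. Rps4l, outside the rule, was at 131, 131 and 116 CPM against 124, 124 and 115 CPM, a log2 fold change of -0.06 ± 0.07.

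Rpl3l, known as the form of Rpl3 that heart and skeletal muscle use, was the member with the smallest unadjusted p in the upward direction and the lowest of the paralogs. It stood at 1.46, 1.34 and 1.24 RPKM in the wild type and 1.77, 1.76 and 1.48 RPKM in the knockout, on 43 to 64 counts a library. The 3 knockout libraries were above all 3 wild-type libraries. The log2 fold change was 0.31 ± 0.18 in edgeR's quasi-likelihood fit (unadjusted p = 0.120; Benjamini-Hochberg adjusted p = 1.0), with an interval from -0.10 to 0.72. Its windows were all unique and its coding sequence was 74.4% identical to that of Rpl3. Of 9 skeletal and heart muscle markers 5 passed the filter. The whole list summed to 62.0, 65.3 and 62.2 CPM in wild-type libraries and 60.5, 71.2 and 57.1 CPM in knockout libraries, with overlapping groups.

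The remaining paralogs have roles outside the germ line. Rps27l, a copy of Rps27 induced by p53, was the most abundant paralog, at 102, 92.6 and 95.8 RPKM in the wild type and 109, 101 and 101 RPKM in the knockout. Each knockout library was above the wild-type library of its number, though the groups overlapped, and the log2 fold change was 0.10 ± 0.07 (0.06 without knockout replicate 1). Rpl7l1, a relative of Rpl7 that takes part in assembly of the large subunit, was at 44.7, 41.9 and 41.2 RPKM against 43.4, 46.0 and 42.3 RPKM (0.04 ± 0.06). Its wild-type level was 0.925 ± 0.11 times that of Rpl7 per summed exon length and 0.400 ± 0.046 times per length of the main transcript, 2606 bases in Rpl7l1 and 1163 in Rpl7. Rpl22l1, a paralog of the RNA-binding protein Rpl22, was at 10.2, 10.4 and 11.6 RPKM against 8.95, 9.69 and 10.9 RPKM, lower in all 3 pairs with overlapping groups (-0.12 ± 0.10). Its log2 fold change was -0.06 without wild-type replicate 3 or knockout replicate 1 and -0.20 without knockout replicate 3. It reached 0.129 ± 0.010 times the level of Rpl22 in the wild type and 0.116 ± 0.0087 times in the knockout. Rpl3l reached 0.0635 ± 0.0086 and 0.0814 ± 0.0099 times the level of Rpl3. Unique windows made up 34.4% in Rpl22l1 against 75.5% in Rpl22, 14.4% in Rpl3, and 90.8% in Rpl7l1 against 46.7% in Rpl7. These ratios are therefore uncertain too. Rps27l was 52.8 ± 11.2 times its parent in the wild type. The windows of Rps27 were 1.35% unique, so this ratio is uncertain. A further row, Rps27rt, outside the rule, was at 45.1 to 52.6 CPM, against 1.63 to 2.34 CPM for Rps27 and 75.6 to 89.3 CPM for Rps27l. Per length of the main transcript the wild-type ratios were 0.0756 ± 0.0061 for Rpl22l1, 0.0328 ± 0.0045 for Rpl3l and 28.6 ± 6.03 for Rps27l, on the same side of 1.

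The balance between paralog and parent was compared between genotypes in 7 pairs, as the log2 ratio of CPM values after adding 0.5 CPM to each. The largest difference was that of Rpl3l to Rpl3, 0.31 higher in the knockout (exact two-sided permutation test, p = 0.2, Benjamini-Hochberg adjusted p = 0.7 over the 7 pairs). The ratio of Rpl22l1 to Rpl22 was 0.15 lower in the knockout (a difference of -0.15, exact permutation p = 0.2, adjusted p = 0.7). For the germ-cell copies the differences were -0.07 for Rpl10l to Rpl10 and 0.12 for Rpl39l to Rpl39 (exact permutation p = 0.7 and 0.6, adjusted p = 1 for each). Rpl7l1, Rpl36al and Rps27l differed by 0.03, 0.02 and -0.02, with exact permutation p of 0.9, 0.8 and 1. With 3 libraries against 3 the smallest p this test can give is 0.1, so no pair could have passed the threshold.

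**Figure D4:**
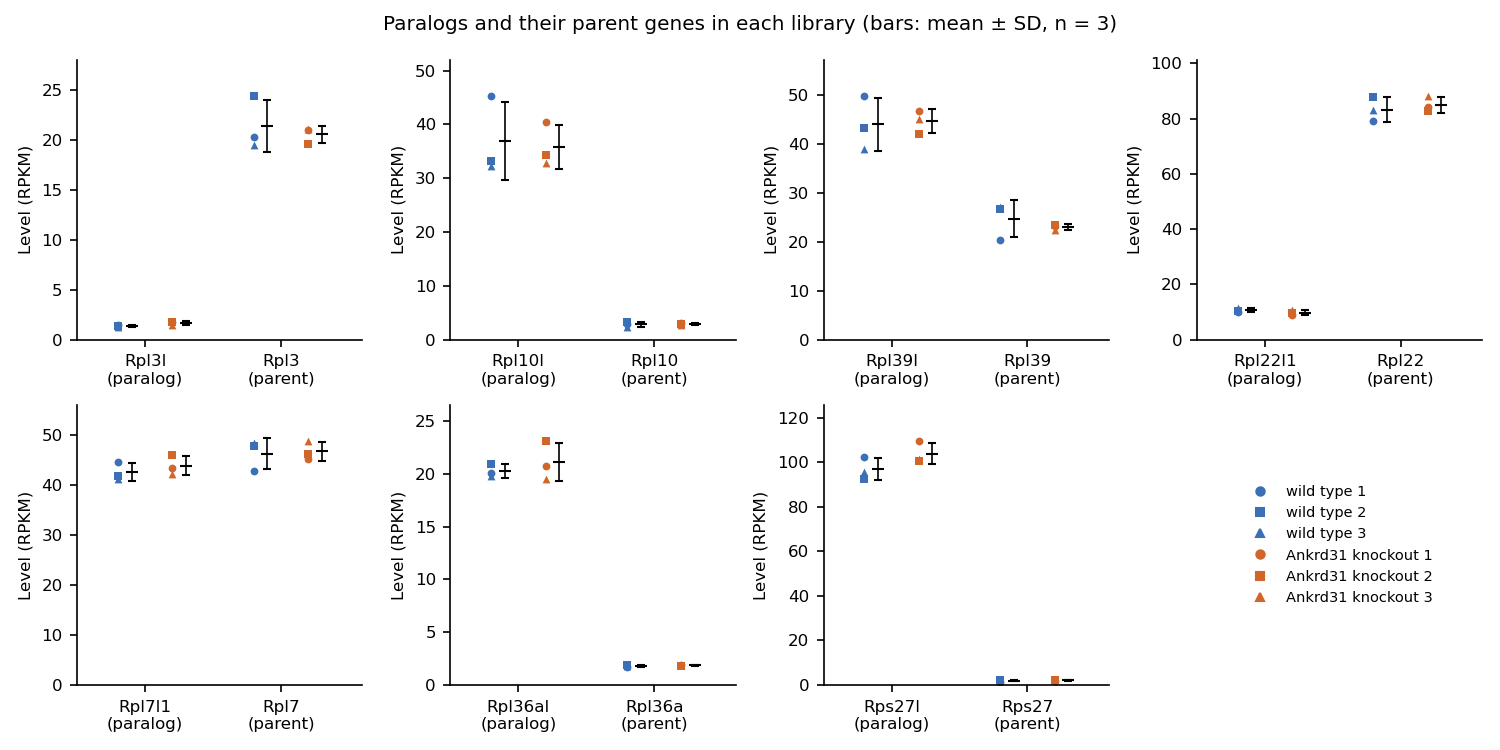
Level in RPKM of each paralog (left) and its parent (right) in every library, blue for wild type and orange for knockout, with marker shape for the replicate number and bars for mean ± SD (n = 3). On this scale of summed exon length, Rpl10l, Rpl39l, Rpl36al and Rps27l lie above their parents, Rpl3l and Rpl22l1 below and Rpl7l1 near Rpl7 (the order of Rpl39l and the nearness of Rpl7l1 do not hold per length of the main transcript), and blue and orange points overlap except in Rpl3l.

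The share of counts in canonical genes spread further among wild-type libraries than the genotype means lay apart. They took 0.739%, 0.832% and 0.767% of all counts in the wild-type libraries 1, 2 and 3 and 0.757%, 0.766% and 0.767% in the knockout libraries of the same order. Wild-type replicate 2 was the highest and wild-type replicate 1 the lowest, with all knockout libraries between them. The means were 0.780% ± 0.048 and 0.763% ± 0.0060 (SD, n = 3), and the difference of -0.016 percentage points became 0.010 without wild-type replicate 2. Rows for named pseudogenes of ribosomal protein genes, 280 in number, held another 0.224% to 0.258% of counts. The 7 paralogs together held 0.0305% to 0.0340%.

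Wild-type replicate 2 was the highest of the 6 libraries for 49 of 78 canonical genes (62.8%), against 22.3% of all tested genes, and for 0 of 7 paralogs. Of the canonical genes 70 lay above their own mean of the 6 libraries there. The median log2 deviation of canonical genes from that mean was -0.05, 0.09 and -0.03 in the wild-type libraries 1, 2 and 3, and -0.01, 0.0016 and -0.02 in the knockouts. The excess was present in both subunits, with medians of 0.09 for 46 large-subunit and 0.09 for 32 small-subunit genes. It was 0.11 in the 24 genes with at least 60% of unique windows and 0.09 in the 23 with under 25%. Among genes with a start window, it was 0.09 in those with a pyrimidine run of at least 8 bases and 0.12 in the others. Wild-type replicate 2 was highest for 83.3% of the 36 canonical genes with at least 1000 counts in every library. For the 42 with fewer counts in a library it was highest in 45.2%.

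Some other lists moved in the same library. It was the highest library for 17 of 40 translation factors and 30 of 77 mitochondrial ribosome genes, against 22.3% of all tested genes. The counts were near that share for ribosome biogenesis genes (11 of 44) and regulators of ribosomal protein synthesis (3 of 13). Knockout replicate 2 was the highest library for 13 of the biogenesis genes. In wild-type replicate 2 the early meiotic prophase list had its lowest value, a median deviation of -0.54 and a sum of 1430 CPM, and the pachytene list one of -0.41. The 10 Sertoli markers had a median deviation of 0.15 and the 5 erythroid genes one of 0.50, with sums of 6844 and 95.4 CPM against 5918 to 6949 and 59.2 to 68.7 CPM in the other libraries. The macrophage list stood at -0.32 there. The part of cell composition in the level of the ribosomal protein genes was not tested. Within a genotype, the median coefficient of variation of canonical genes was 7.73% in the wild type and 4.04% in the knockout, against 9.46% and 8.35% for all tested genes. In pairs of the same number the median log2 difference of canonical genes was 0.05, -0.11 and 0.02 for pairs 1, 2 and 3, so that pair 2, which holds wild-type replicate 2, had the sign opposite to the others.

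**Figure D5:**
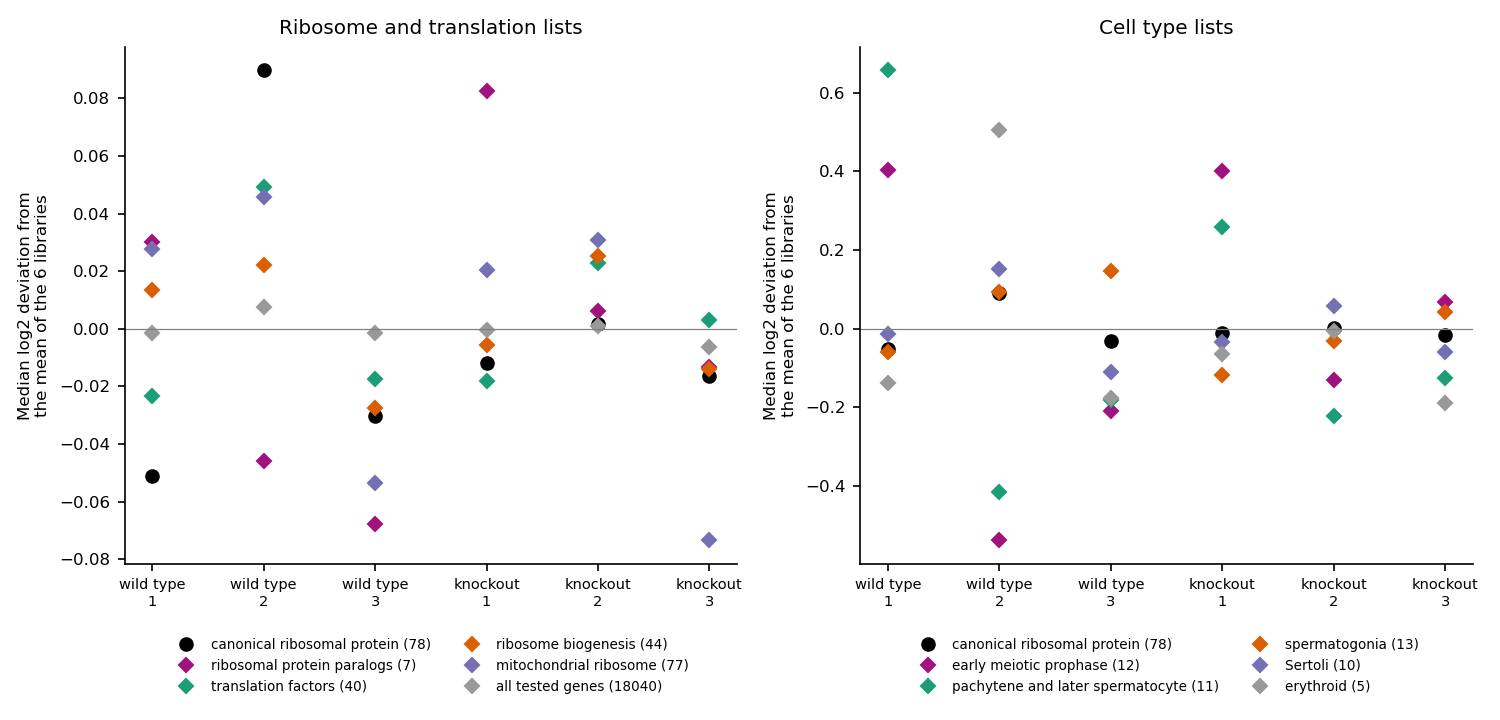
Median log2 deviation of gene lists from the mean of the 6 libraries, by library, for ribosome and translation lists (left) and cell type lists (right); the number of genes is in the legend and the 2 vertical scales differ. Canonical ribosomal protein genes (black) peak at 0.09 in wild-type replicate 2, where the early meiotic prophase list is at -0.54 and the erythroid list at 0.50.

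Genes that work with the ribosome were read from the same fit in 5 lists with 176 tested genes. edgeR's quasi-likelihood test called 0 of them, and 1, Myc, had an unadjusted p under 0.05, against 2.07% of all tested genes. DESeq2 and limma voom each gave 0 calls and 1 gene at that unadjusted level, against 1.34% and 2.07% of all tested genes. With the block the calls were again 0 in edgeR, DESeq2 and limma voom, and the genes with an unadjusted p under 0.05 were 9, 2 and 10 (5.11%, 1.14% and 5.68% of the 176), against 7.48%, 2.21% and 7.51% of all tested genes. Rack1, a scaffold bound to the small subunit, had a log2 fold change of -0.04 ± 0.07 at 483 to 551 CPM. Of 40 translation factors 18 had a positive and 22 a negative log2 fold change, and the smallest unadjusted p belonged to Eif2s3y (0.14 ± 0.10) and Eif2s2 (0.10 ± 0.07), subunits of initiation factor eIF2. Of 44 ribosome biogenesis genes 23 were positive and 21 negative. They were led by Nmd3, the export adaptor of the large subunit, at 110, 98.1 and 97.9 CPM in wild-type libraries and 115, 109 and 113 CPM in knockout libraries. Wild-type replicate 1 lay above knockout replicate 2, and the log2 fold change was 0.14 ± 0.07. Heatr3, which helps import of Rpl5, followed with 0.11 ± 0.06.

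Of 13 regulators of ribosomal protein synthesis 4 were positive and 9 negative. The transcription factor gene Myc was at 10.01, 11.9 and 12.3 CPM in wild-type libraries and 8.79, 9.89 and 8.83 CPM in knockout libraries. The groups of Myc did not overlap, and its log2 fold change was -0.31 ± 0.12 (edgeR's quasi-likelihood test, unadjusted p = 0.029, Benjamini-Hochberg adjusted p = 1.0). Rptor, the mTORC1 subunit raptor, had a log2 fold change of -0.10 ± 0.06. The mitochondrial ribosome, built from a separate set of proteins, had 77 of 78 genes tested, with 32 positive and 45 negative values, and its genes with the smallest unadjusted p were Mrpl28 (0.13 ± 0.07) and Mrps12 (-0.15 ± 0.08). Its median log2 fold change was -0.01, that of translation factors -0.0049 and that of biogenesis genes 0.02, beside -0.01 for the canonical ribosomal protein genes.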

How the data were processed

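RNA-seq covered whole testes of 3 Ankrd31+/+ and 3 Ankrd31-/- mice, and the labels' protocols name a directional kit. The deposited data are 1 table of unnormalized counts by gene, made by the authors. The submitters' processing notes list GSNAP, featureCounts 1.6.0, bcl2fastq 2.19.1 and mm10. Not given in the sources used here were strand setting, annotation release and handling of multiply matching reads. The deposited length column gave summed exon lengths for RPKM.

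Of 49763 rows, 92 spike-in rows with 1 count in all were left out. Of 49671 gene rows 49412 matched GENCODE M21, and 259 (0.0193% of counts) were unmatched. For 70 of the 85 members both sources give equal coordinates. CPM used TMM-scaled library sizes. The test was that of edgeR 4.0.16 under R 4.3.3 (filterByExpr, TMM, robust quasi-likelihood fit, two-sided, unblocked), with Benjamini-Hochberg adjustment over 18040 genes and a threshold of 0.05; the fit was tested on simulated data. The median SE was 0.086 for members (0.067 with the block) and 0.113 for all genes, and the biological coefficient of variation was 10.3% (5.67% with the block). DESeq2 1.42.0, limma 3.58.1 (voom), other normalizations, no filter, a length correction, the replicate block and fits without each library were alternatives; blocked fits without a whole pair and RPKM per length of the main transcript (APPRIS principal in GENCODE) were chosen after seeing the data.

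Same-number libraries deviated together from their group means (correlations of 0.42, 0.26 and 0.28, each over 0.1). Numbers were therefore treated as pairs in the blocked alternatives and in differences between same-number libraries. The main test, with its SEs and intervals, did not use the pairs. This hint of pairing comes from the data, not the labels. By the design text each genotype had 3 mice, and p-values measure the spread between these libraries only. Ratios were tested by exact permutation (scipy 1.17.1), and coding sequences were aligned with biopython 1.88. Genes named were the paralogs and their parents, the 5 members with the smallest unadjusted p in each direction, the 3 highest and 3 lowest canonical members, X-linked members, members called with the block (none), up to 2 genes per related list and Ankrd31, without results that are not reported here; others were named after their values were seen. Members and lists were chosen with earlier results of these data known.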

Additional observations from a re-analysis of the deposited data

How the results depend on the processing

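The 85 members gave 0 calls in every one of 20 alternatives, which were other normalizations, no filter, DESeq2, limma voom, a length correction, the replicate block, and fits without each library or pair. For all genes the count of 0 became 1 without a filter on low counts and 2 with DESeq2. With the replicate block it was 8 in edgeR, 8 in limma voom and 14 in DESeq2, 6 with a length correction added, 63 without pair 1, 57 without pair 2 and 0 without pair 3; the cause was not tested. The block changed no call of a member or of a gene in the related and cell type lists, which gave 0 calls with it and without each library.

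The median log2 fold change of canonical genes ranged from -0.04 to 0.04 and was above 0 only without wild-type replicate 2 (0.04) or pair 2 (0.03). Their share of counts differed by -0.0365 to 0.0103 percentage points when 1 library was left out.

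Of 780 alternative values for 39 named genes, 729 kept direction and call, 7 (all for Ankrd31) passed the threshold, and 44 turned sign, none of them called. Rpl4 was 0.0023 with DESeq2 size factors, 0.00424 without a filter, 0.0023 in DESeq2, 0.00317 in blocked DESeq2, 0.00618 with a length correction and 0.00702 with a length correction and the block. Rpl11 was -0.00666 in limma voom. In blocked edgeR without pair 1, Rpl10l was 0.0344, Rpl10 was -0.0103, Rpl7 was -0.0137, Rpl36a was -0.0227, Rps13 was 0.13, Rpl11 was -0.10 and Rpl24 was -0.0813. In blocked edgeR without pair 2, Rpl3 was 0.082, Rpl7l1 was -0.0033, Rpl4 was 0.033, Rpl8 was 0.0194 and Rplp1 was 0.0266. In blocked edgeR without pair 3, Rpl10 was -0.0405, Rpl39l was -0.0638 and Rps27a was -0.00136. Without 1 library at a time the log2 fold change ran for Rpl10l from -0.14 to 0.13, Rpl22 from -0.00793 to 0.0678, Rpl7 from -0.0394 to 0.0549, Rpl36a from -0.00994 to 0.0883, Rps13 from -0.16 to 0.0431, Rpl3 from -0.11 to 0.0493, Rpl4 from -0.0478 to 0.0454, Rpl8 from -0.0891 to 0.0231, Rplp1 from -0.0442 to 0.0304, Rps4x from -0.24 to 0.00894, Rpl10 from -0.0926 to 0.15, Rpl39l from -0.0505 to 0.12, Rpl11 from -0.16 to 0.15 and Rpl36al from -0.00156 to 0.11. The genotype difference in the paralog to parent log2 ratio ran, in the same way, for Rps27l from -0.11 to 0.12, Rpl10l from -0.25 to 0.0664, Rpl7l1 from -0.0285 to 0.12, Rpl39l from -0.0377 to 0.34 and Rpl36al from -0.0539 to 0.0736, and that of Rps27l was 0.0262 with 2 CPM added.

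Depth limited the scarce members: 14 had under 100 counts in a library, and a 1.5-fold change lay inside the interval of 6 members. Members that share sequence with pseudogenes have uncertain counts.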
